A study of Homo sapiens with 45 samples.

Results

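The genes described here make, sense and move cholesterol and fatty acids. They were 35 of the 57353 gene symbols in a table of RNA-seq read counts, chosen by pathway name, with earlier results of these data known. They fall into 18 genes of sterol synthesis, 5 sterol regulators, 7 genes of fatty acid synthesis and 5 genes of sterol efflux and transport. The 45 libraries came from 3 estrogen receptor positive breast cancer cell lines: MM134 and MM330, which model lobular carcinoma, and HCC1428, which models ductal carcinoma. Each line was held for 3 days in charcoal-stripped serum, which is poor in steroids, transfected with siRNA, given estradiol or vehicle 24 h later and collected after a further 24 h. The groups were siER_E2 (siRNA to the estrogen receptor gene ESR1, then 100 pM estradiol), siFOXA1_E2 (siRNA to the pioneer factor gene FOXA1, then 100 pM estradiol) and siMDC1_E2 (siRNA to the DNA damage mediator gene MDC1, then 100 pM estradiol). Their reference was siNT_E2 (non-targeting siRNA, then 100 pM estradiol), which was itself set against siNT (non-targeting siRNA, then 0.01% ethanol as vehicle). Every group had 3 libraries in each line. Knockdown was transient and was not combined with vehicle, each line stands for 1 tumour, and no label says whether replicate libraries were grown as separate cultures, so p-values measure the spread between these libraries, which may be technical.

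Cells make cholesterol from acetyl-CoA through mevalonate, squalene and lanosterol. When sterols in the endoplasmic reticulum run low, the escort protein SCAP carries the transcription factors SREBP-2 (gene SREBF2) and SREBP-1 (gene SREBF1) to the Golgi, where they are cut and released. SREBP-2 mainly drives sterol synthesis and SREBP-1 mainly fatty acid synthesis, while INSIG1 and INSIG2 hold SCAP back when sterols are plentiful. Surplus sterol is turned into oxysterols, which activate the liver X receptors, and these raise ABCA1, ABCG1, MYLIP and SREBF1. Breast cancer cells use these pathways for membranes, lipid droplets and signalling lipids.

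Library totals ranged from 21.0 to 36.7 M counts. In HCC1428, mitochondrial genes held 14.33, 11.67 and 11.81% of counts in the siNT_E2 libraries, which are numbered 2, 3 and 4. The other HCC1428 libraries had 14.95 to 18.69%. The part of this difference in the results was not tested. Levels are given as CPM, counts divided by the effective library size after TMM scaling over all 45 libraries. Each siRNA lowered its target in every line. ESR1 fell by 3.12, 3.68 and 1.00 on the log2 scale under siER_E2 in MM134, MM330 and HCC1428. FOXA1 fell by 1.97, 1.86 and 1.64 under siFOXA1_E2, and MDC1 fell by 2.13, 2.30 and 1.94 under siMDC1_E2, in the same order of lines. ESR1 itself also fell in MM134 by 2.29 under siFOXA1_E2 and by 2.16 under siMDC1_E2, and in MM330 by 0.45 and 0.96. In HCC1428 ESR1 fell by 0.16 and 0.12 under these knockdowns. MDC1 in turn fell by 0.63, 0.98 and 1.17 under siER_E2 and by 0.35, 0.71 and 0.90 under siFOXA1_E2 in MM134, MM330 and HCC1428, so the knockdowns are not independent of each other's targets in any of the lines. In 11 libraries, 2 of MM134, 4 of MM330 and 5 of HCC1428, 0.337 to 0.494% of counts lay on processed pseudogenes, against 0.123 to 0.159% in the other 34, and their part in the results was measured by leaving them out. The epithelial markers KRT8, KRT18 and EPCAM were present in every library, and the leukocyte and endothelial markers PTPRC, CD3E, PECAM1 and CDH5 did not exceed 0.22 CPM in any. Of the collagen genes, COL3A1 had 0 CPM throughout and COL1A1 had 20.6 to 117 CPM. The adipocyte genes PLIN1 and ADIPOQ reached 10.2 and 1.59 CPM, and the liver genes ALB and APOA1 reached 0.600 and 1.84 CPM. CDH1, whose loss is the usual mark of lobular carcinoma, was at 18.6 to 26.9 CPM in MM134, against 723 to 957 CPM in MM330 and 1114 to 1388 CPM in HCC1428. CTNNA1, its partner alpha-catenin, was at 35.7 to 46.2 CPM in MM330, against 380 to 554 CPM in MM134 and 290 to 343 CPM in HCC1428.

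Where transcription of these genes starts bears on which factors could bind there, so the 250 bases before the RefSeq start (build GRCh38.p14) were searched for short motifs on both strands; 30 of the 35 genes had a promoter in the table of 27305 genes, and SQLE, FDFT1, ACAT2, FASN and ABCG1 had none. The CCAAT box, the letters CCAAT or on the other strand ATTGG, which nuclear factor Y binds beside SREBP, was found in 20 of the 30 promoters (66.7%) and in 13 of 15 sterol synthesis promoters (86.7%), against 37.0% of all promoters. The sterol regulatory element TCACNCCAC, which SREBP binds, was found in 1 of the 30, that of SREBF2, against 1.09% of all promoters. The GC box GGGCGG was found in 29 of 30, against 46.2%, and the E-box CACGTG in 4, against 7.73%. The 27305 genes were not matched to these genes for expression or base content. Whether an excess is particular to these genes was not tested. The forkhead motif TGTTTAC was found in 1, that of ELOVL6, against 3.66%. Neither the estrogen response element GGTCANNNTGACC, found in 0.0513% of all promoters, nor the repeat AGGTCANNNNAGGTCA bound by liver X receptors, found in 0.0183%, was found in any of the 30. Only the exact letters of each motif were searched. Sites that differ by a letter or lie outside the 250 bases were missed, so no match does not mean no site. The stretches free of annotated exons are printed for 6 genes on which the results turn: DHCR7, MSMO1 and NSDHL stand for sterol synthesis, SCD for fatty acid synthesis, and MYLIP and ABCA1 for the liver X receptor targets. They are written 5′ to 3′ on the gene's own strand, with CCAAT or ATTGG in capitals.
DHCR7 (chr11:71448436-71448643, minus strand): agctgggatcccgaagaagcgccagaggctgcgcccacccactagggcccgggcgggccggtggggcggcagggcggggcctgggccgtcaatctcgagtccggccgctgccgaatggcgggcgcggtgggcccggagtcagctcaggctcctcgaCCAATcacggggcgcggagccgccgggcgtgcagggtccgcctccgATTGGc
MSMO1 (chr4:165327419-165327622, plus strand): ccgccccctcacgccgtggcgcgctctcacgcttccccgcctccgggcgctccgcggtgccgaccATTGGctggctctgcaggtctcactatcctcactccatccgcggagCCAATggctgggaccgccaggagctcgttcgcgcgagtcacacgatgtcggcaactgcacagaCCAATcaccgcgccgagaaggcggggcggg
NSDHL (chrX:152830813-152830966, plus strand): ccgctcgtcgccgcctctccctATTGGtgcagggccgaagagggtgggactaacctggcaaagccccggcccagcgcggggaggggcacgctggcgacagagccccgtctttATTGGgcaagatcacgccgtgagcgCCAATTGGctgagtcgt
SCD (chr10:100346983-100347123, plus strand): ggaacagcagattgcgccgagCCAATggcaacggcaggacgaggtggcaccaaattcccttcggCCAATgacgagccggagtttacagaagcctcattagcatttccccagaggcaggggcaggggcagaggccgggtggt
MYLIP (chr6:16128836-16129085, plus strand): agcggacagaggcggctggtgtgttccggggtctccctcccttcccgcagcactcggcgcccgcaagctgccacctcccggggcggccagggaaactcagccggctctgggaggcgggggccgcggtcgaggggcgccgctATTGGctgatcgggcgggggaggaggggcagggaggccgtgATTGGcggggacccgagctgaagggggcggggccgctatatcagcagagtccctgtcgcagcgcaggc
ABCA1 (chr9:104928238-104928405, minus strand): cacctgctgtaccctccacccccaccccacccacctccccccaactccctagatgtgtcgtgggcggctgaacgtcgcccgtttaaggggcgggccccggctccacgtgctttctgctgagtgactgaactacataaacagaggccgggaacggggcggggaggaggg
NSDHL held 4 boxes in its stretch, MSMO1 held 3, DHCR7, SCD and MYLIP held 2 each, and ABCA1 held 0. Apart from ABCA1, only promoters with a match were printed. A second DHCR7 promoter (chr11:71449044-71449293) held 0 boxes and is not shown. A match is a description of the letters and says nothing of binding in these cells.

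Before estradiol, SCD and FASN had the highest levels per length in each line and differed widely between lines. Per kilobase of exon, siNT libraries of MM330 averaged 1893 CPM per kb of SCD, the stearoyl-CoA desaturase that makes monounsaturated fat, 855 CPM per kb of FASN, the fatty acid synthase, and 210.0 CPM per kb of SREBF1, the top 3 of the 35 genes in that line. FASN and SCD also led in MM134, at 81.2 and 72.5 CPM per kb, and in HCC1428, at 380.4 and 276 CPM per kb. Across the 7 fatty acid synthesis genes the median was 30.2 CPM per kb in MM134, 26.1 in MM330 and 6.31 in HCC1428, and across the 5 efflux and transport genes it was 5.53, 1.29 and 10.9 in the same order. Across the 18 sterol synthesis genes the median was 9.81 CPM per kb in MM134, 15.3 in MM330 and 17.9 in HCC1428. SQLE, the squalene epoxidase, led that group in MM134 and HCC1428 at 45.5 and 46.0 CPM per kb, and FDFT1, the squalene synthase, led it in MM330 at 53.5 CPM per kb. FADS2, a desaturase of polyunsaturated fat, was at 0.483 CPM per kb in HCC1428, against 30.2 in MM134 and 26.1 in MM330. ABCA1 was all but missing from MM330, with 4 counts in 2 of its 15 libraries, and was not tested there. STARD4, a cytosolic sterol carrier, stayed under 4 CPM in every library of every line, so its tests rest on few counts. These levels are single-line descriptions and were not tested against each other; in such bulk RNA a change in the share of cells of one state and a change in RNA per cell cannot be told apart.

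Most of the 35 genes moved with estradiol and with knockdown of the receptor. With estradiol more of them rose than fell in MM134 and HCC1428, and more fell than rose in MM330. The threshold for a call was an adjusted p below 0.05 (edgeR's quasi-likelihood test, Benjamini-Hochberg adjustment over all genes tested), and the share of all tested genes called in the same direction is given as background. The same shares are the background of the counts by role in later paragraphs. The share of all genes called in 1 direction in all 3 lines is not given. Calls that the 3 lines share therefore have no background here. Under estradiol (siNT_E2 over siNT), 22 of 35 genes rose and 4 fell in MM134 (background 27.2% and 27.2%), 5 of 34 rose and 16 fell in MM330 (13.7% and 12.6%), and 25 of 35 rose and 5 fell in HCC1428 (29.1% and 25.7%). Under siER_E2 over siNT_E2, 9 rose and 22 fell in MM134 (background 29.3% and 27.9%), 15 rose and 5 fell in MM330 (15.1% and 17.4%), and 7 rose and 24 fell in HCC1428 (22.5% and 28.7%). Under siFOXA1_E2 over siNT_E2, 18 rose and 6 fell in MM134 (background 27.9% and 28.5%), 12 rose and 13 fell in MM330 (24.4% and 24.6%), and 10 rose and 20 fell in HCC1428 (24.1% and 29.5%). Under siMDC1_E2 over siNT_E2, 19 rose and 11 fell in MM134 (background 25.4% and 25.0%), 15 rose and 3 fell in MM330 (10.4% and 10.4%), and 5 rose and 11 fell in HCC1428 (13.2% and 15.9%). With estradiol the median log2 fold change of the tested members was 0.35 in MM134, -0.15 in MM330 and 0.47 in HCC1428, against medians over all tested genes of -0.03, -0.00 and -0.03. Of the 302 calls in these 12 comparisons, 261 held in every alternative run for them and 0 turned sign, and the 41 that were lost in at least 1 had fold changes of at most 0.41 on the log2 scale. The fold changes that share the siNT_E2 libraries are given side by side and not related to each other, because the same libraries enter both.

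**Figure D1:**
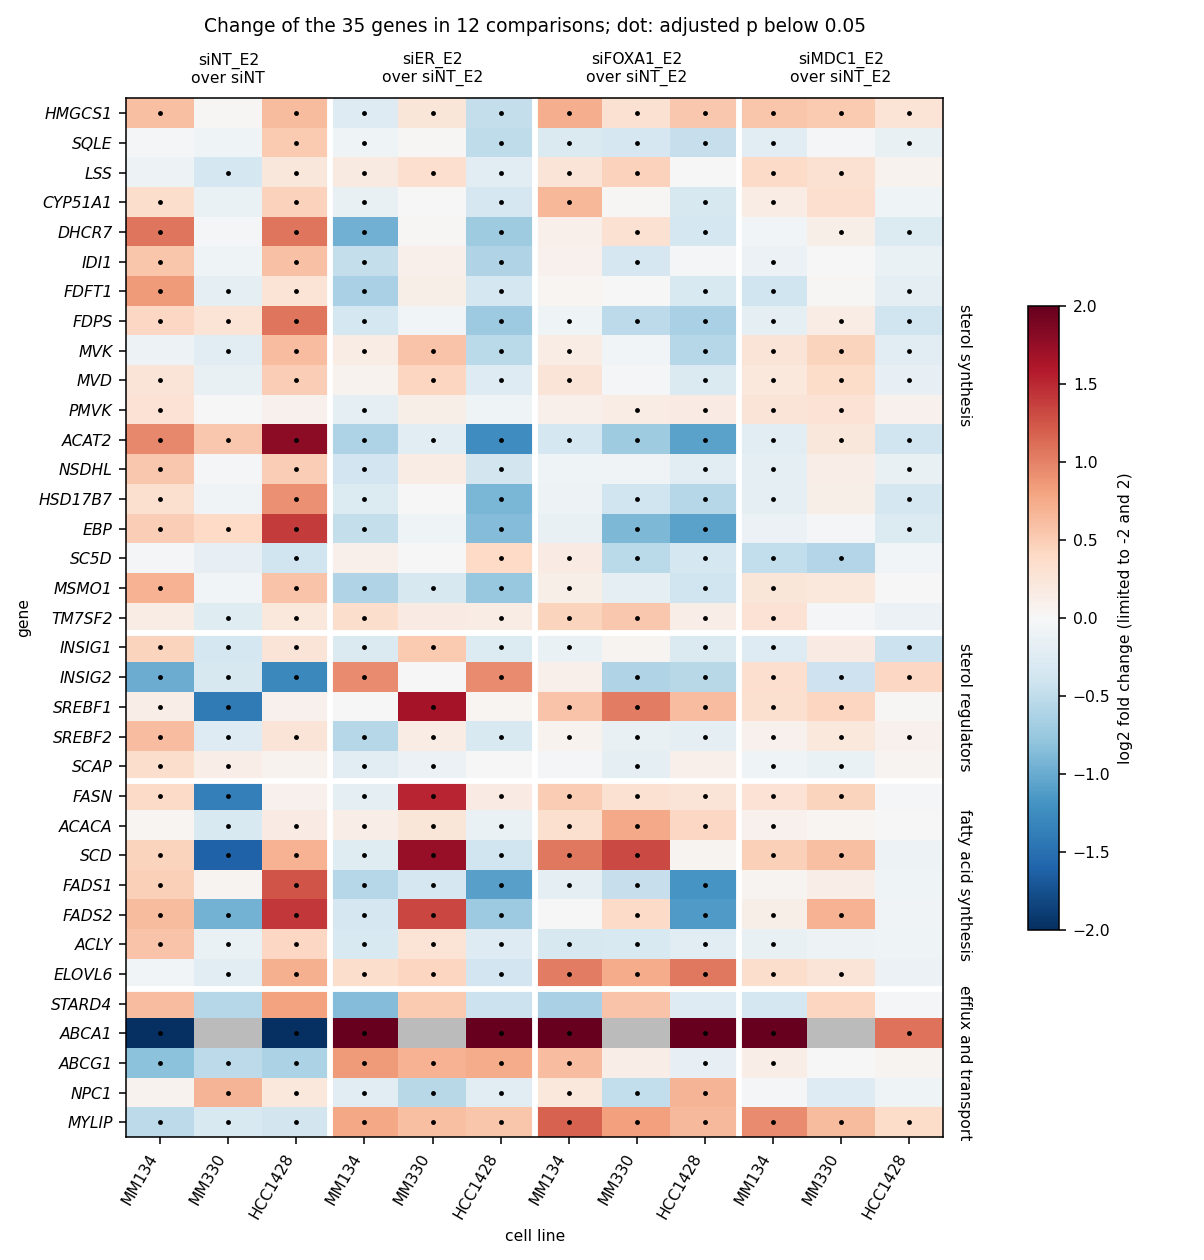
The log2 fold change of each of the 35 genes (rows, ordered by role) in 12 comparisons (columns, 3 lines for each of 4 effects), coloured from blue (lower) to red (higher) and limited to -2 and 2, with a dot where the adjusted p was below 0.05; grey cells were not tested. The MM330 columns for estradiol and for siER_E2 stand apart at SREBF1, FASN, SCD and FADS2, where MM330 is blue with estradiol and red with siER_E2. Both effects rest on the same siNT_E2 libraries.

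Sterol synthesis genes rose with estradiol in MM134 and HCC1428, while those called in MM330 went both ways. In MM134, 13 of 18 rose and none fell (background 27.2% and 27.2%), with a median log2 fold change of 0.38. In HCC1428, 16 of 18 rose and 1 fell (29.1% and 25.7%), with a median of 0.55. In MM330, 3 rose and 4 fell (13.7% and 12.6%), with a median of -0.08. The rises in MM330 were near the background. The 3 genes that rose in MM330 were FDPS, the farnesyl diphosphate synthase (0.28), ACAT2, the cytosolic thiolase of the first step (0.53), and EBP, the sterol isomerase (0.41), and these 3 rose in all 3 lines. The 4 that fell there were LSS, the lanosterol synthase (-0.35), TM7SF2, a sterol reductase (-0.24), MVK, the mevalonate kinase (-0.23), and FDFT1 (-0.19). Without the libraries of higher pseudogene share the calls of MVK (-0.11, adjusted p = 0.55) and FDFT1 (-0.17, adjusted p = 0.088) were lost, and that of MVK also without any 1 of siNT replicates 1 and 2 or siNT_E2 replicates 1, 2 and 3. SC5D, the lathosterol oxidase, was the single sterol synthesis gene called lower in HCC1428 (-0.40). In MM134 LSS was not called (-0.09, adjusted p = 0.056). It was called lower there without siNT_E2 replicate 3 (-0.12, adjusted p = 0.025) and with the pseudogene class term (-0.09, adjusted p = 0.048).

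DHCR7 (ENSG00000172893.15, chr11:71428193-71452868), the reductase of the last step to cholesterol, was the gene of this group that changed most with estradiol in MM134. Its level was 39.7, 42.0 and 45.6 CPM in siNT_E2 libraries of MM134, against 19.9, 21.6 and 18.2 CPM in siNT libraries (log2 fold change 1.07 ± 0.07 SE, adjusted p = 4.8e-12). In HCC1428 it was at 248, 237 and 249 CPM with estradiol, against 122, 117 and 114 CPM with vehicle (log2 fold change 1.08 ± 0.04 SE, adjusted p = 4.5e-14). The groups did not overlap in either line. In MM330 its values crossed, at 72.8, 79.3 and 72.8 CPM with estradiol, against 80.5, 76.2 and 78.2 CPM with vehicle (-0.05, not called). Under siER_E2 its level was 20.1, 22.5 and 21.9 CPM in MM134, a fall against siNT_E2 (log2 fold change -0.95 ± 0.06 SE, adjusted p = 2.5e-11).

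ACAT2 (ENSG00000120437.8, chr6:159760328-159779055) rose in all 3 lines and most in HCC1428. There it was at 26.5, 29.0 and 32.2 CPM in siNT_E2 libraries, against 8.84, 7.95 and 8.91 CPM in siNT libraries (log2 fold change 1.79 ± 0.10 SE, adjusted p = 8.0e-12). In MM134 it was at 124, 121 and 122 CPM, against 61.4, 64.0 and 62.2 CPM (log2 fold change 0.95 ± 0.03 SE, adjusted p = 2.0e-16). In MM330 it was at 22.4, 25.7 and 22.5 CPM, against 15.6, 16.3 and 17.4 CPM (log2 fold change 0.53 ± 0.08 SE, adjusted p = 6.4e-05). The siNT_E2 libraries were all above the siNT libraries in each line. Exons of ACAT2 overlap those of SOD2 and TCP1 on the other strand, and the strand setting of the counting is not given in the sources used here.

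Knockdown of the receptor lowered this group in MM134 and HCC1428. Under siER_E2, 13 of 18 fell and 3 rose in MM134 (background 27.9% and 29.3%), with a median of -0.26. In HCC1428 15 fell and 2 rose (28.7% and 22.5%), with a median of -0.49. In MM330 4 rose and 2 fell (15.1% and 17.4%), with a median of 0.06. The rises in MM134 and HCC1428 and the falls in MM330 were below the background, and the rises in MM330 were near it. ACAT2 and MSMO1, the methylsterol monooxygenase, fell in all 3 lines, MSMO1 by 0.60 in MM134, 0.32 in MM330 and 0.76 in HCC1428. In MM330 the ACAT2 call (-0.22) was lost in 7 of 14 alternatives, among them those without siER_E2 replicate 2 or 3 and without siNT_E2 replicate 1 or 2, and both were lost without the libraries of higher pseudogene share (ACAT2 -0.20, adjusted p = 0.22; MSMO1 -0.27, adjusted p = 0.054). In HCC1428 ACAT2 changed most, to 11.7, 12.3 and 13.8 CPM (log2 fold change -1.24 ± 0.09 SE, adjusted p = 1.3e-09). In MM330 it was MVK that changed most, with a mean of 33.9 ± 1.76 CPM under siER_E2, against 22.7 ± 1.44 CPM under siNT_E2 (SD, n = 3 each; log2 fold change 0.57 ± 0.08 SE, adjusted p = 2.7e-05).

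Knockdown of FOXA1 moved the group both ways. 8 of 18 rose and 3 fell in MM134 (background 27.9% and 28.5%), 5 rose and 7 fell in MM330 (24.4% and 24.6%), and 3 rose and 13 fell in HCC1428 (24.1% and 29.5%). The rises in MM330 were near the background, and the falls in MM134 and the rises in HCC1428 were below it. HMGCS1, which joins acetoacetyl-CoA and acetyl-CoA into HMG-CoA, and TM7SF2 rose in all 3 lines, while SQLE, FDPS and ACAT2 fell in all 3. The smallest of these, FDPS in MM134 (-0.08) and TM7SF2 in HCC1428 (0.14), lost their calls when 1 library was left out: FDPS without siFOXA1_E2 replicate 1 or 2 or siNT_E2 replicate 2 or 3 (adjusted p 0.078 to 0.22), and TM7SF2 without replicate 2 of siFOXA1_E2 or of siNT_E2 (adjusted p 0.055 and 0.090). HMGCS1 (ENSG00000112972.14, chr5:43289395-43313512) was the most changed in MM134, at 158, 165 and 160.2 CPM under siFOXA1_E2, against 99.2, 93.2 and 100.4 CPM under siNT_E2 (log2 fold change 0.73 ± 0.03 SE, adjusted p = 3.2e-14). It rose by 0.31 in MM330 and by 0.53 in HCC1428. EBP was the most changed in MM330, with 7.54 ± 0.774 CPM under siFOXA1_E2, against 14.1 ± 1.10 CPM under siNT_E2 (mean and SD, n = 3 each; log2 fold change -0.90 ± 0.10 SE, adjusted p = 1.5e-06). In HCC1428 ACAT2 was, at 14.8, 15.3 and 12.4 CPM (log2 fold change -1.08 ± 0.09 SE, adjusted p = 8.9e-09). SQLE had 111, 132 and 126 CPM in siFOXA1_E2 libraries of MM330, against 147, 153 and 163 CPM in siNT_E2 libraries, without overlap, and fell by 0.29, 0.33 and 0.46 in MM134, MM330 and HCC1428.

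Knockdown of MDC1 raised and lowered about as many of these genes in MM134, raised most of those called in MM330 and lowered most of those called in HCC1428. 8 of 18 rose and 8 fell in MM134 (background 25.4% and 25.0%), 8 rose and 1 fell in MM330 (10.4% and 10.4%), and 1 rose and 10 fell in HCC1428 (13.2% and 15.9%). HMGCS1 rose in all 3 lines. In MM134 it was at 144, 145 and 144 CPM under siMDC1_E2, against 99.2, 93.2 and 100.4 CPM under siNT_E2, the largest change of the group in that line (log2 fold change 0.55 ± 0.03 SE, adjusted p = 7.8e-12). It was at 111, 106 and 105 CPM in MM330, against 74.2, 69.8 and 78.8 CPM (0.53), and at 102, 95.8 and 104 CPM in HCC1428, against 80.7, 79.9 and 87.1 CPM (0.27). Each siMDC1_E2 library of HMGCS1 was above each siNT_E2 library of its line. SC5D changed most in MM330 (log2 fold change -0.59 ± 0.06 SE, adjusted p = 4.0e-06), and FDPS in HCC1428 (log2 fold change -0.39 ± 0.05 SE, adjusted p = 3.5e-06).

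Other members of this group also moved with estradiol. IDI1, the isopentenyl diphosphate isomerase, had 67.5, 63.1 and 66.5 CPM in siNT_E2 libraries of MM134, against 46.6, 43.6 and 42.8 CPM in siNT libraries (0.56), and 143, 132 and 149 CPM in HCC1428, against 91.3, 92.6 and 101 CPM (0.59). IDI1 did not overlap between the groups in these lines. LSS had 128, 133 and 131 CPM in siNT_E2 libraries of MM330, against 169, 167 and 169 CPM in siNT libraries, again with no overlap. MVD and PMVK, the diphosphomevalonate decarboxylase and the phosphomevalonate kinase, rose in MM134 with estradiol by 0.26 and 0.29. NSDHL and HSD17B7, which help strip methyl groups from sterols, rose by 0.50 and 0.91 in HCC1428. CYP51A1, the lanosterol demethylase, rose by 0.35 in MM134 and 0.47 in HCC1428. Reads of HSD17B7 and CYP51A1 could be split with near-identical pseudogenes (HSD17B7P2, CYP51A1P1 and CYP51A1P2), which reached 4.37, 5.81 and 2.78 CPM, and their values are uncertain at least to that extent. Exons of CYP51A1 also overlap those of the gene AC000120.2 on the same strand, over 2844 of 3584 bases. AC000120.2 did not exceed 0.0301 CPM. How reads in that overlap were counted is not given, so the level of CYP51A1 is less certain still.

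**Figure D2:**
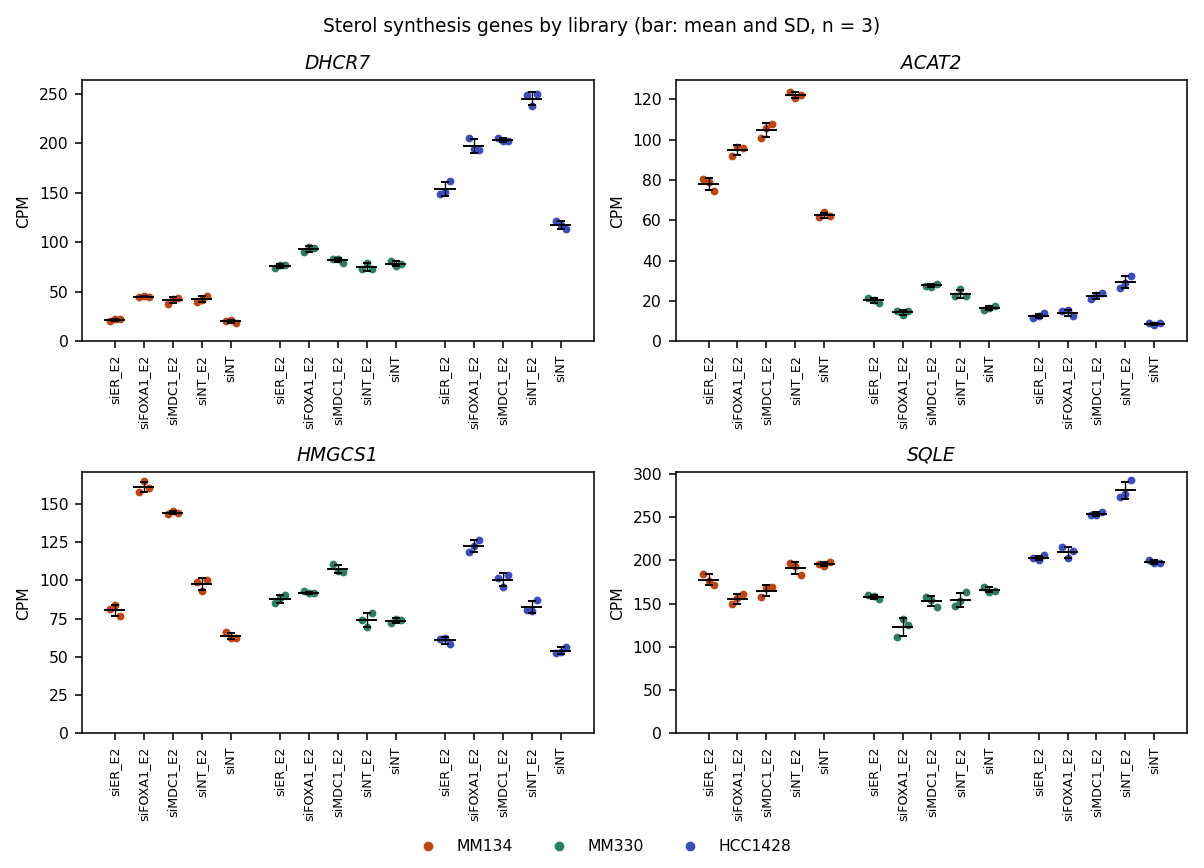
CPM of DHCR7, ACAT2, HMGCS1 and SQLE in each library (points), with mean and SD (bars, n = 3), for the 5 groups of MM134, MM330 and HCC1428. DHCR7 and ACAT2 are higher in siNT_E2 than in siNT libraries in MM134 and HCC1428, and HMGCS1 is higher in siFOXA1_E2 and siMDC1_E2 than in siNT_E2 libraries in all 3 lines.

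Among the sterol regulators, INSIG2 fell with estradiol in all 3 lines and SREBF1 fell in MM330. INSIG2 (ENSG00000125629.14, chr2:118088452-118110997), which retains SCAP in the endoplasmic reticulum, fell to a mean of 9.48 ± 1.13 CPM in siNT_E2 libraries of MM134, against 18.8 ± 1.07 CPM in siNT libraries (SD, n = 3 each; log2 fold change -0.99 ± 0.09 SE, adjusted p = 2.6e-09), and to 17.7 ± 1.81 CPM in HCC1428, against 43.9 ± 1.70 CPM (SD, n = 3 each; log2 fold change -1.29 ± 0.07 SE, adjusted p = 1.2e-11). In MM330 its fold change was -0.32 (adjusted p = 0.029), and that call was lost in 5 of 14 alternatives, those without siNT replicate 1 or 3, without siNT_E2 replicate 1 or 2 and without the libraries of higher pseudogene share (adjusted p 0.081 to 0.13). SREBF1 (ENSG00000072310.16, chr17:17810399-17837002) had 627, 653 and 587 CPM in siNT_E2 libraries of MM330, against 1719, 1657 and 1685 CPM in siNT libraries, with no overlap (log2 fold change -1.42 ± 0.04 SE, adjusted p = 4.9e-13). In HCC1428 it had 246, 251 and 245 CPM, against 231, 236 and 243 CPM (0.08, not called), but was called without siNT replicate 3 of HCC1428 (0.09, adjusted p = 0.047). In MM134 it had 108, 108 and 115 CPM, against 98.6, 96.6 and 105 CPM (0.13); that call was lost without siNT replicate 2 or siNT_E2 replicate 3 of MM134 (adjusted p = 0.056 and 0.051). The test of the difference between lines is given with the line differences. SREBF2 rose by 0.61 in MM134 and 0.26 in HCC1428 and fell by 0.26 in MM330. SREBF2 in MM134 had 296, 299 and 307 CPM in siNT_E2 libraries, against 192, 198 and 195 CPM in siNT libraries, and INSIG1, itself an SREBP target, had 93.2, 98.5 and 95.6 CPM, against 71.3, 68.7 and 70.0 CPM (0.44). INSIG1 also rose in HCC1428 (0.26), and it fell in MM330, to 24.3, 26.0 and 29.2 CPM with estradiol, against 35.6, 32.5 and 34.7 CPM with vehicle, without overlap (-0.35). SCAP rose by 0.35 in MM134 and 0.13 in MM330, where the call was lost without the libraries of higher pseudogene share (adjusted p = 0.13).

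Under siER_E2, INSIG2 rose in MM134 (log2 fold change 0.95 ± 0.09 SE, adjusted p = 4.0e-09) and HCC1428 (log2 fold change 0.95 ± 0.07 SE, adjusted p = 1.7e-09), and in MM330 it did not pass the test (0.01). SREBF1 had 2003, 2046 and 1915 CPM in siER_E2 libraries of MM330, above the siNT_E2 and siNT libraries (log2 fold change 1.67 ± 0.04 SE, adjusted p = 7.3e-14). In MM134 and HCC1428 its change under siER_E2 was 0.02 and 0.04, neither called. Knockdown of FOXA1 raised SREBF1 in all 3 lines, to 161, 164 and 164 CPM in MM134 (log2 fold change 0.57 ± 0.04 SE, adjusted p = 8.0e-12), 1133, 1355 and 1300.4 CPM in MM330 (log2 fold change 1.02 ± 0.04 SE, adjusted p = 2.0e-11) and 393, 379.6 and 389 CPM in HCC1428 (log2 fold change 0.61 ± 0.03 SE, adjusted p = 2.1e-11). All 9 siFOXA1_E2 libraries were above every siNT_E2 library of their line. Knockdown of MDC1 raised SREBF1 in MM330 to 864, 848 and 822 CPM (log2 fold change 0.43 ± 0.04 SE, adjusted p = 1.9e-06). It raised INSIG2 in MM134 (log2 fold change 0.34 ± 0.09 SE, adjusted p = 0.0029) and HCC1428 (log2 fold change 0.42 ± 0.07 SE, adjusted p = 2.4e-04). In MM330 INSIG2 fell, to 8.79, 9.92 and 11.1 CPM under siMDC1_E2, against 12.6, 12.2 and 14.8 CPM under siNT_E2 (log2 fold change -0.41 ± 0.10 SE, adjusted p = 0.0085), and the call was lost without siMDC1_E2 replicate 1 (adjusted p = 0.055) or siNT_E2 replicate 3 (adjusted p = 0.059). The INSIG2 groups did not overlap in any of the 3 lines. INSIG1 fell in HCC1428, to 81.8, 79.5 and 78.2 CPM under siMDC1_E2, against 106, 103 and 110.4 CPM under siNT_E2 (log2 fold change -0.43 ± 0.04 SE, adjusted p = 8.2e-08). SREBF2 changed by 0.08, 0.21 and 0.09 under siMDC1_E2 in MM134, MM330 and HCC1428, and its call was lost in 5 of 14 alternatives in MM134 and in 10 of 14 in HCC1428.

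Fatty acid synthesis genes rose with estradiol in MM134 and HCC1428 and fell in MM330. 5 of 7 rose in MM134 (background 27.2%), 6 of 7 rose in HCC1428 (29.1%), and 6 of 7 fell in MM330 (12.6%). None went the other way past the threshold in any of the 3. The medians were 0.45, 0.69 and -0.31. SCD (ENSG00000099194.5, chr10:100347124-100364834) had 3379, 3236 and 3192 CPM in siNT_E2 libraries of MM330, against 10299.5, 9984 and 10170.0 CPM in siNT libraries (log2 fold change -1.62 ± 0.05 SE, adjusted p = 1.9e-13). It had 524, 532 and 553 CPM in MM134, against 390.3, 384 and 392 CPM (0.45), and 2329.5, 2347 and 2436 CPM in HCC1428, against 1391, 1485 and 1571 CPM (0.69). All siNT_E2 libraries lay below the siNT libraries in MM330 and above them in the others. FASN (ENSG00000169710.8, chr17:82078333-82098332) had 3103, 3172 and 2946 CPM in siNT_E2 libraries of MM330, against 8083, 8002 and 7942 CPM in siNT libraries (log2 fold change -1.36 ± 0.03 SE, adjusted p = 3.1e-14). In MM134 it had 1026, 979 and 996 CPM, against 772, 749 and 759.8 CPM (0.38), and in HCC1428 it did not pass the test (0.09). FASN did pass in HCC1428 without siNT_E2 replicate 2 (0.13, adjusted p = 0.014). The pseudogene SCDP1, which could share reads with SCD, did not exceed 6.16 CPM.

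FADS2 (ENSG00000134824.13, chr11:61792980-61867354) was the most changed of the group in MM134 and HCC1428. It had 514, 526 and 518 CPM in siNT_E2 libraries of MM134, against 334, 338 and 328 CPM in siNT libraries (log2 fold change 0.63 ± 0.03 SE, adjusted p = 1.5e-13), and 14.5, 14.3 and 13.1 CPM in HCC1428, against 5.17, 5.30 and 5.50 CPM (log2 fold change 1.41 ± 0.08 SE, adjusted p = 3.6e-11). In MM330 it had 153, 151 and 137 CPM, against 292, 280.0 and 292 CPM (log2 fold change -0.95 ± 0.05 SE, adjusted p = 2.3e-10). The groups did not overlap in any of the 3 lines. FADS1, a desaturase that acts beside FADS2, rose by 0.48 and 1.27 in MM134 and HCC1428. The exons of FADS1 and FADS2 overlap on opposite strands over 490 bases. ACLY, which makes cytosolic acetyl-CoA, rose by 0.57 in MM134 and 0.42 in HCC1428. ELOVL6, which lengthens saturated fat, and ACACA, the acetyl-CoA carboxylase, rose by 0.72 and 0.17 in HCC1428 and were not called in MM134; the ACACA call was lost without siNT_E2 replicate 3 or 4 of HCC1428 (adjusted p = 0.12 and 0.093).

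Knockdown of the receptor raised the group in MM330. 6 of 7 rose and 1, FADS1, fell there (-0.34; background 15.1% and 17.4%), while 5 of 7 fell in MM134 (27.9%) and 6 of 7 fell in HCC1428 (28.7%). SCD had 11310.3, 10964 and 10489 CPM in siER_E2 libraries of MM330, all above the siNT_E2 libraries (log2 fold change 1.74 ± 0.05 SE, adjusted p = 7.8e-14). FASN had 8804, 9036 and 8862 CPM (log2 fold change 1.53 ± 0.03 SE, adjusted p = 7.3e-15), and FADS2 had 392, 372 and 349.6 CPM (1.33). FADS1 was the gene that changed most in MM134 (log2 fold change -0.57 ± 0.03 SE, adjusted p = 5.3e-13) and in HCC1428 (log2 fold change -1.09 ± 0.07 SE, adjusted p = 3.9e-10). In MM134 ELOVL6 (0.34) and ACACA (0.13) rose, and in HCC1428 FASN was the 1 gene that rose (0.16).

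Knockdown of FOXA1 raised FASN, ACACA and ELOVL6 in all 3 lines and lowered FADS1 and ACLY in all 3. How many of all genes moved alike in all 3 is not given. ELOVL6 (ENSG00000170522.9, chr4:110045846-110199199) had 68.3, 77.3 and 74.2 CPM in siFOXA1_E2 libraries of MM134, against 36.7, 34.5 and 37.5 CPM in siNT_E2 libraries (1.02), 62.4, 77.5 and 75.6 CPM in MM330, against 43.3, 42.1 and 43.2 CPM (0.74), and 85.0, 83.2 and 82.2 CPM in HCC1428, against 38.9, 37.2 and 41.8 CPM (1.05). The siFOXA1_E2 libraries were higher throughout. SCD was the most changed in MM134, at 1058, 1109 and 1149.6 CPM (log2 fold change 1.05 ± 0.03 SE, adjusted p = 1.1e-17), and in MM330, at 7367, 8959.8 and 8339 CPM (log2 fold change 1.33 ± 0.05 SE, adjusted p = 2.0e-12), and was not called in HCC1428 (0.06). In HCC1428 SCD was called with the compared libraries only (0.09, adjusted p = 0.026) and with the replicate block (0.11, adjusted p = 0.016). FADS1 was the most changed in HCC1428 (log2 fold change -1.18 ± 0.08 SE, adjusted p = 1.4e-10), with FADS2 beside it at 6.79, 6.30 and 6.47 CPM (log2 fold change -1.13 ± 0.08 SE, adjusted p = 9.6e-10). Knockdown of MDC1 raised 5 of 7 and lowered 1 in MM134 (background 25.4% and 25.0%) and raised 4 of 7 in MM330 (10.4%). In HCC1428 edgeR called 0 of 7 (13.2% and 15.9%), where 3 had an unadjusted p below 0.05, DESeq2 called 2 and limma-voom 1. SCD had 725, 759 and 780.5 CPM in siMDC1_E2 libraries of MM134 (log2 fold change 0.48 ± 0.03 SE, adjusted p = 1.2e-11) and 5196, 4877 and 4820.0 CPM in MM330 (log2 fold change 0.60 ± 0.05 SE, adjusted p = 1.1e-07). FADS2 had 249, 236 and 235 CPM in MM330 and changed most there (log2 fold change 0.70 ± 0.05 SE, adjusted p = 4.0e-08).

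**Figure D3:**
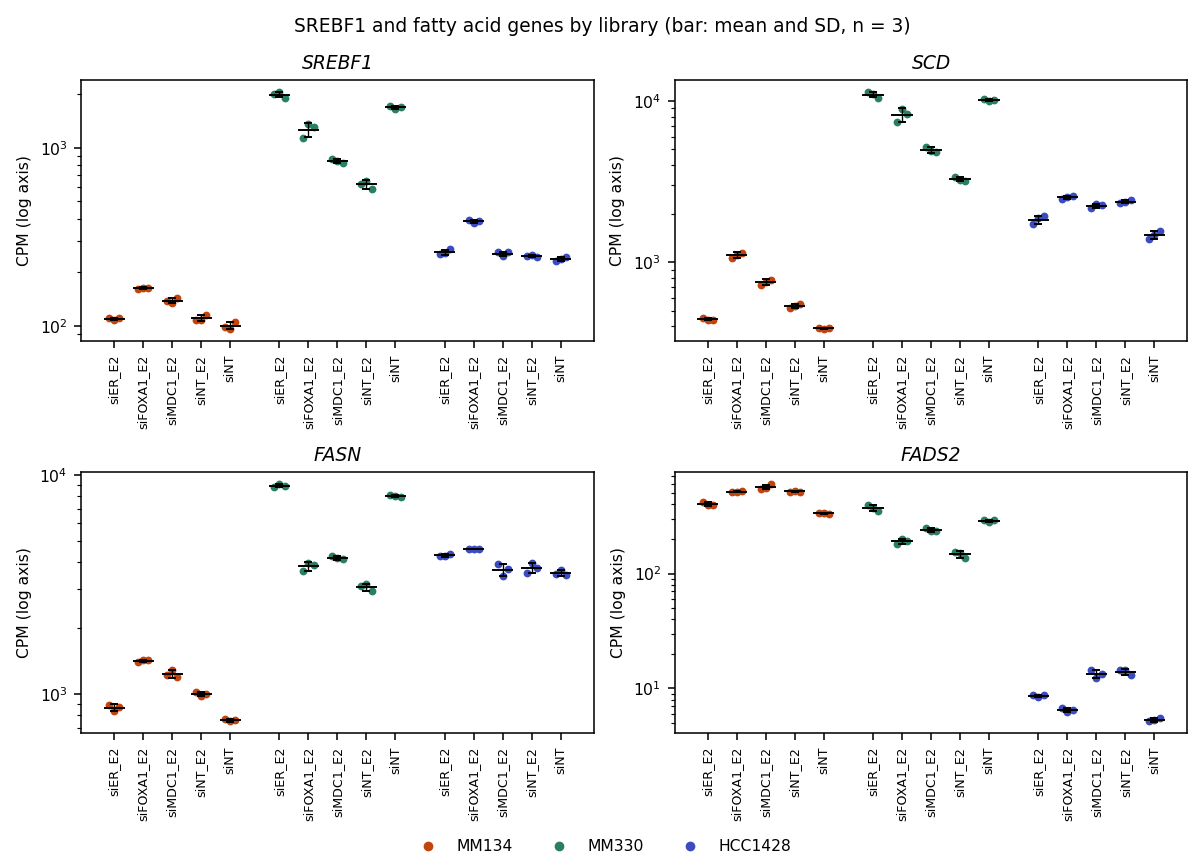
CPM on a log axis of SREBF1, SCD, FASN and FADS2 in each library (points), with mean and SD (bars, n = 3), for the 5 groups of MM134, MM330 and HCC1428. In MM330 the 4 genes are lower in siNT_E2 than in siNT libraries and are back at or above the siNT level in siER_E2 libraries, a pattern not seen in MM134 or HCC1428.

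Among the efflux and transport genes, ABCA1, ABCG1 and MYLIP fell with estradiol in every line in which they were tested. In MM134 3 of 5 fell (background 27.2%). In MM330 2 of 4 tested fell and 1 rose (12.6% and 13.7%), and in HCC1428 3 of 5 fell and 1 rose (25.7% and 29.1%). ABCA1 (ENSG00000165029.15, chr9:104781002-104928237), which loads cholesterol onto lipid-poor apolipoproteins, had 0.898, 1.10 and 0.484 CPM in siNT_E2 libraries of MM134, against 8.90, 8.17 and 7.86 CPM in siNT libraries (log2 fold change -3.31 ± 0.18 SE, adjusted p = 8.9e-13). In HCC1428 it had 1.93, 2.34 and 1.90 CPM, against 11.3, 9.28 and 10.4 CPM (log2 fold change -2.33 ± 0.11 SE, adjusted p = 2.4e-12). It was the largest change among the members in both lines, and the groups did not overlap. In MM330 its counts were 0 in the siNT_E2 libraries and 0 in the siNT libraries, which allow at most 0.0342 and 0.0330 CPM (3 counts of each group's total).

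ABCG1, which passes cholesterol to high-density lipoprotein, and MYLIP, a ubiquitin ligase that degrades the LDL receptor, fell in all 3 lines. ABCG1 (ENSG00000160179.18, chr21:42199689-42297244) had 51.7, 52.7 and 49.5 CPM in siNT_E2 libraries of MM134, against 89.8, 89.3 and 90.9 CPM in siNT libraries (-0.82). It had 69.0, 77.9 and 69.6 CPM in MM330, against 109, 101 and 106 CPM (-0.53), and 71.4, 72.1 and 73.9 CPM in HCC1428, against 121, 116 and 105 CPM (-0.64). Estradiol libraries were lower in each line. MYLIP fell by 0.52, 0.30 and 0.37 in MM134, MM330 and HCC1428. NPC1, which lets cholesterol out of lysosomes, rose in MM330, to 20.5 ± 0.833 CPM, against 13.1 ± 1.47 CPM (mean and SD, n = 3 each), its group's largest change there (log2 fold change 0.68 ± 0.09 SE, adjusted p = 2.0e-05). NPC1 rose by 0.21 in HCC1428.

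All 3 knockdowns raised ABCA1 and MYLIP where these were tested. In each line they were compared with the same siNT_E2 libraries, so these rises are not independent of each other. Those libraries held 81 counts of ABCA1 together in MM134 and 182 in HCC1428. Under siER_E2, ABCA1 had 10.9, 9.71 and 8.51 CPM in MM134 (log2 fold change 3.54 ± 0.18 SE, adjusted p = 2.3e-13) and 12.2, 13.0 and 13.7 CPM in HCC1428 (log2 fold change 2.64 ± 0.11 SE, adjusted p = 5.8e-13). Under siFOXA1_E2 it had 3.68, 3.30 and 3.39 CPM in MM134 (log2 fold change 2.04 ± 0.19 SE, adjusted p = 4.5e-09) and 11.8, 12.5 and 10.6 CPM in HCC1428 (log2 fold change 2.48 ± 0.11 SE, adjusted p = 1.5e-12). Under siMDC1_E2 it had 4.37, 4.06 and 3.49 CPM in MM134 (log2 fold change 2.22 ± 0.19 SE, adjusted p = 1.5e-09) and 4.31, 4.30 and 4.51 CPM in HCC1428 (log2 fold change 1.09 ± 0.12 SE, adjusted p = 1.7e-06). These 6 groups lay above every siNT_E2 library of their line. MYLIP (ENSG00000007944.14, chr6:16129125-16148248) was the gene of this group most changed in MM330 under siFOXA1_E2, at 112, 113 and 109 CPM, against 61.2, 64.7 and 63.2 CPM in siNT_E2 libraries (log2 fold change 0.82 ± 0.04 SE, adjusted p = 7.1e-11), and under siMDC1_E2, at 101, 99.2 and 94.9 CPM (log2 fold change 0.64 ± 0.04 SE, adjusted p = 1.2e-08). In MM134 it had 43.2, 44.3 and 43.7 CPM under siFOXA1_E2 (log2 fold change 1.17 ± 0.07 SE, adjusted p = 1.9e-12) and 39.4, 37.4 and 37.0 CPM under siMDC1_E2 (log2 fold change 0.95 ± 0.07 SE, adjusted p = 1.4e-10), against 18.7, 19.9 and 20.1 CPM in siNT_E2 libraries. ABCG1 rose under siER_E2 in all 3 lines, in MM330 to 118, 123 and 111 CPM (log2 fold change 0.70 ± 0.06 SE, adjusted p = 9.2e-08). Under siFOXA1_E2 it rose in MM134 (0.61), was not called in MM330 (0.13) and fell in HCC1428 (-0.16), where the call was lost without siNT_E2 replicate 4 (adjusted p = 0.060). In MM330 it was called without siFOXA1_E2 replicate 3 (0.17, adjusted p = 0.032) or siNT_E2 replicate 2 (0.17, adjusted p = 0.035). Under siMDC1_E2 ABCG1 rose in MM134 (0.13) and was not called in MM330 (-0.01) or HCC1428 (0.06).

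NPC1 moved in opposite directions under siFOXA1_E2. It rose by 0.68 in HCC1428, with 207 ± 4.54 CPM, against 126 ± 5.16 CPM in siNT_E2 libraries (mean and SD, n = 3 each), and by 0.21 in MM134, and it fell by 0.49 in MM330. Under siER_E2 it fell in all 3 lines, by 0.21, 0.56 and 0.22 in MM134, MM330 and HCC1428. STARD4 had 3.83, 1.55 and 1.51 CPM in siFOXA1_E2 libraries of MM330, against 1.46, 1.81 and 1.35 CPM in siNT_E2 libraries. It was called in none of the 12 comparisons in the main fit. Some alternatives called it lower in MM134 under siER_E2, for example with the pseudogene class term (-1.16, adjusted p = 0.014). Others called it lower in MM134 under siFOXA1_E2, for example without siFOXA1_E2 replicate 1 (-1.12, adjusted p = 0.032). In MM330 it was called higher under siFOXA1_E2 without replicate 3 of that group (0.82, adjusted p = 0.042).

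**Figure D4:**
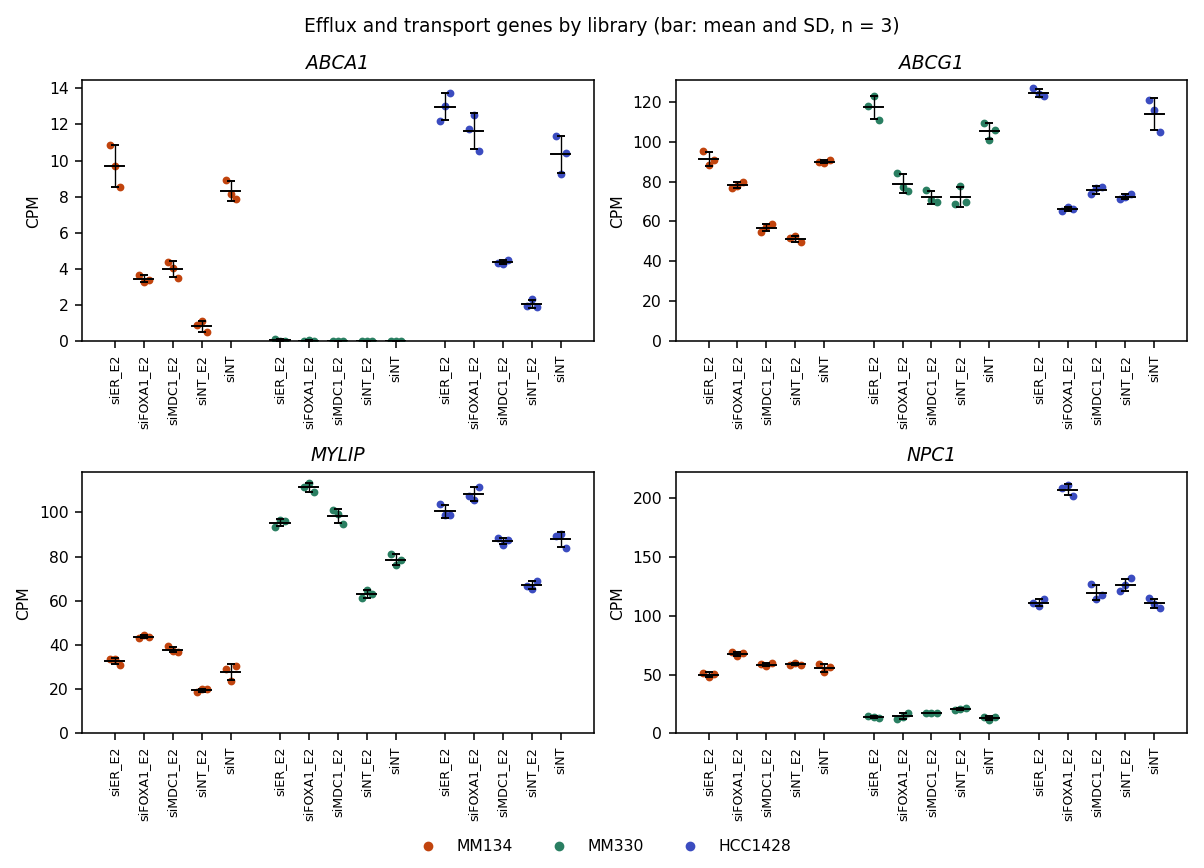
CPM of ABCA1, ABCG1, MYLIP and NPC1 in each library (points), with mean and SD (bars, n = 3), for the 5 groups of MM134, MM330 and HCC1428. ABCA1 is lower in siNT_E2 than in siNT libraries in MM134 and HCC1428 and at about 0 in MM330, and ABCG1 and MYLIP are lower in siNT_E2 than in siNT libraries in all 3 lines.

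Knockdown libraries were also set against vehicle (siNT) and against each other. In MM134, 20 of 35 genes were called in siER_E2 over siNT (background 32.3% of all genes tested), 32 in siFOXA1_E2 over siNT (56.8%) and 32 in siMDC1_E2 over siNT (49.1%). In MM330 the counts were 15 (20.2%), 27 (46.9%) and 22 (34.9%) of 34, and in HCC1428 16 (21.2%), 25 (48.5%) and 31 (48.4%) of 35. The fold changes over vehicle had their narrowest span under siER_E2 in each line: the lowest and highest were -0.24 and 0.51 for MM134, -0.37 and 0.38 for MM330, and -0.35 and 0.69 for HCC1428. Over vehicle, siFOXA1_E2 left SCD (1.50) and HMGCS1 (1.34) higher in MM134 and FASN lower in MM330 (-1.05). In HCC1428 it left ELOVL6 higher (1.77) and INSIG2 lower (-1.84). The HCC1428 count for siER_E2 over siNT was 10 without the libraries of higher pseudogene share, which left 1 library in each of these groups.

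Between knockdowns, siFOXA1_E2 over siER_E2 called 29 genes in MM134 (background 51.3%), 26 in MM330 (45.9%) and 19 in HCC1428 (42.9%). The comparison siMDC1_E2 over siER_E2 called 28 (45.6%), 19 (30.6%) and 30 (41.1%), and siFOXA1_E2 over siMDC1_E2 called 23 (49.8%), 24 (48.8%) and 27 (45.4%), in the same order of lines. ABCA1 was lower under siFOXA1_E2 than under siER_E2 in MM134 (-1.50) and lower under siMDC1_E2 than under siER_E2 in MM134 (-1.32) and HCC1428 (-1.55). SCD was higher under siFOXA1_E2 than under siER_E2 in MM134 (1.30), and ELOVL6 was higher in HCC1428 (1.44). In MM330, siMDC1_E2 left SREBF1 (-1.24), SCD (-1.14) and FASN (-1.09) below siER_E2.

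The differences between lines were tested directly, as the effect in the first-named line minus that in the second. A member was counted only where it was tested in both lines alone. The background here and in the next paragraph is the share of all 21447 genes of the joint fit. These include genes not tested in a line alone, so the shares of members and of all genes are not strictly alike. For estradiol, MM330 minus HCC1428 was called for 29 of 34 genes (background 28.3%), MM134 minus MM330 for 26 of 34 (26.2%) and MM134 minus HCC1428 for 19 of 35 (26.5%). FADS2 in MM330 minus HCC1428 differed most (-2.36 ± 0.09 SE, adjusted p = 1.4e-23), and SREBF1 (-1.50 ± 0.06 SE, adjusted p = 1.5e-21) and ACAT2 (-1.25 ± 0.11 SE, adjusted p = 1.3e-12) differed most among regulators and sterol synthesis. SCD differed in MM134 minus MM330 (2.10 ± 0.07 SE, adjusted p = 1.0e-24), as did SREBF1 (1.58 ± 0.06 SE, adjusted p = 1.1e-21), DHCR7 (1.15 ± 0.08 SE, adjusted p = 3.0e-15) and NPC1 (-0.59 ± 0.09 SE, adjusted p = 4.3e-06). In MM134 minus HCC1428 the largest of sterol synthesis, fatty acid synthesis and the regulators were EBP (-0.88 ± 0.13 SE, adjusted p = 3.2e-07), FADS1 (-0.76 ± 0.08 SE, adjusted p = 6.2e-11) and SREBF2 (0.38 ± 0.06 SE, adjusted p = 3.5e-06). ABCA1, the largest of all in MM134 minus HCC1428, was -0.96 ± 0.30 SE, adjusted p = 0.014, and it lost its call without siNT_E2 replicate 3 of MM134 (-0.71, adjusted p = 0.081). STARD4 in MM330 minus HCC1428 was -1.37 ± 0.48 SE, adjusted p = 0.027, and it lost its call without the libraries of higher pseudogene share (-1.11, adjusted p = 0.26) and in 7 other alternatives, 6 of which left out 1 library.

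For siER_E2, MM330 minus HCC1428 was called for 28 genes (background 25.3%), MM134 minus MM330 for 24 (25.4%) and MM134 minus HCC1428 for 20 (24.5%). SCD differed most in MM330 minus HCC1428 (2.11 ± 0.07 SE, adjusted p = 7.0e-25) and in MM134 minus MM330 (-2.01 ± 0.07 SE, adjusted p = 4.6e-24), and ABCA1 in MM134 minus HCC1428 (0.86 ± 0.30 SE, adjusted p = 0.032), where the call was lost without siNT_E2 replicate 3 of MM134 (0.60, adjusted p = 0.16) and in 5 other alternatives that left out 1 library (adjusted p 0.053 to 0.087). For siFOXA1_E2, MM330 minus HCC1428 was called for 19 (22.2%), MM134 minus MM330 for 26 (29.1%) and MM134 minus HCC1428 for 25 (30.5%). FADS2 differed most in MM330 minus HCC1428 (1.48 ± 0.09 SE, adjusted p = 2.7e-17) and in MM134 minus HCC1428 (1.08 ± 0.08 SE, adjusted p = 1.1e-13). STARD4 differed most in MM134 minus MM330 (-1.22 ± 0.47 SE, adjusted p = 0.049), with the call lost without siFOXA1_E2 replicate 1 of MM330 (-0.65, adjusted p = 0.30) and in 11 other alternatives: without siNT_E2 replicate 1 or 3 of MM330, siNT_E2 replicate 1 or 2 of MM134 or siFOXA1_E2 replicate 2 or 3 of MM134, with the compared libraries only, no filter on low counts, limma-voom, the replicate block or the pseudogene class term (adjusted p 0.054 to 0.15). For siMDC1_E2, MM330 minus HCC1428 was called for 21 (13.8%), MM134 minus MM330 for 10 (20.8%) and MM134 minus HCC1428 for 15 (18.6%). INSIG2 differed most in MM330 minus HCC1428 (-0.83 ± 0.13 SE, adjusted p = 1.2e-05) and in MM134 minus MM330 (0.76 ± 0.14 SE, adjusted p = 4.0e-05), and ABCA1 in MM134 minus HCC1428 (1.14 ± 0.31 SE, adjusted p = 0.0062).

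**Figure D5:**
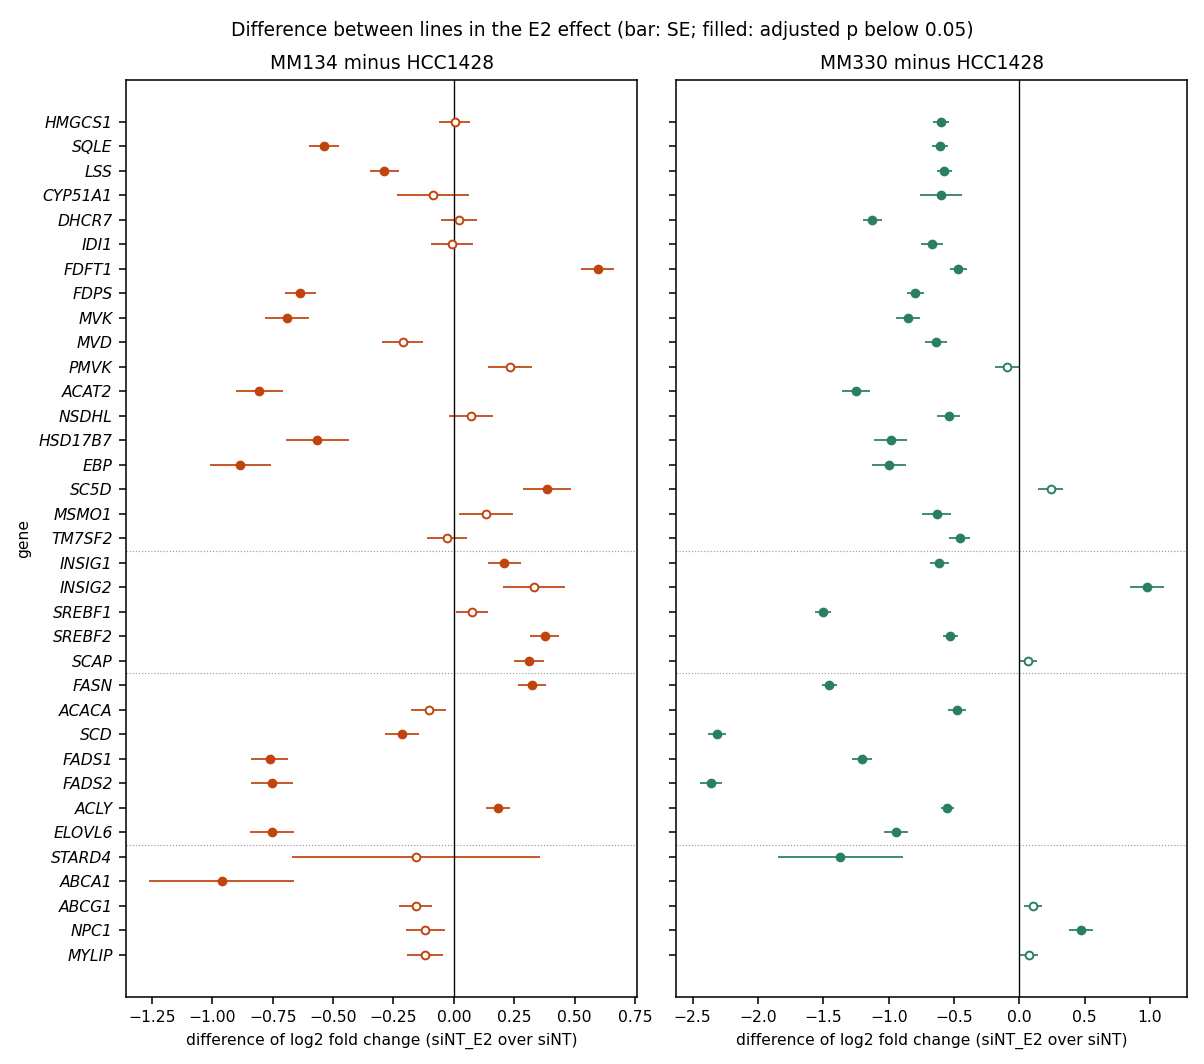
The difference in log2 fold change with estradiol between lines for each gene, with the SE as a bar, for MM134 minus HCC1428 (left) and MM330 minus HCC1428 (right); filled points have an adjusted p below 0.05 and ABCA1 was not tested in MM330. In MM330 minus HCC1428 most points lie below 0, and SCD and FADS2 lie below -2.

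Other genes of the same pathways were counted from lists chosen with earlier results known. With estradiol, 27.2% of all tested genes rose and 27.2% fell in MM134, 13.7% and 12.6% in MM330, and 29.1% and 25.7% in HCC1428, and these shares are the background of the counts that follow. With estradiol, of the tested liver X receptor pathway genes 5 of 8 fell and 1 rose in MM134, 4 of 8 fell and none rose in MM330, and 5 of 8 fell and 1 rose in HCC1428. SMPDL3A, a phosphodiesterase that liver X receptors induce, fell by 0.77, 0.83 and 0.92 in MM134, MM330 and HCC1428. Under siER_E2, 5 of 8 rose and none fell in MM134, 5 of 8 rose and none fell in MM330, and 5 rose and 1 fell in HCC1428, against 29.3%, 15.1% and 22.5% of all tested genes that rose in MM134, MM330 and HCC1428. Of other fatty acid synthesis genes, 15 of 20 rose and 2 fell with estradiol in HCC1428, 7 of 17 rose and 6 fell in MM134, and 4 of 17 rose and 5 fell in MM330. ELOVL2, which lengthens polyunsaturated fat, was the largest rise in each line (2.20, 2.37 and 2.20). Of fatty acid oxidation genes, 8 of 14 fell and 2 rose with estradiol in MM134, 7 of 15 fell and 2 rose in MM330, and 5 of 13 fell and 3 rose in HCC1428. PPARGC1A, a coactivator of oxidation genes, was the largest fall in MM134 (-2.41) and MM330 (-0.59).

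The remaining lists held calls in both directions. Among the counts near the background were those of SREBP processing in MM330 and HCC1428, its rises in MM134, and those of lipid storage in MM330. Of other sterol supply genes, 4 of 10 rose and 3 fell with estradiol in MM134, 2 of 11 rose and 5 fell in MM330, and 6 of 11 rose and 2 fell in HCC1428. Of SREBP processing genes, 2 of 7 rose and 4 fell in MM134, 1 rose and 1 fell in MM330, and 2 rose and 2 fell in HCC1428. Of lipid storage and uptake genes, 4 of 11 rose and 1 fell in MM134, 1 of 10 rose and 1 fell in MM330, and 6 of 12 rose and 1 fell in HCC1428. RNF145, a sterol-sensing ubiquitin ligase, was the largest rise of the SREBP processing list under siFOXA1_E2 in MM134 (1.57) and MM330 (1.84). In HCC1428, PLIN2, a lipid droplet coat protein, rose most of the storage list with estradiol (1.45), and CD36, a fatty acid transporter, rose most under siFOXA1_E2 (2.17).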

How the data were processed

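Polyadenylated RNA was made into stranded libraries and read in pairs of 150 bases each, as given in the labels. Per the submitters' processing notes, reads were aligned to GRCh38 with STAR 2.6.0a and limma was used; which tool, annotation and strand setting made the counts is not given in the sources used here. In the deposited table the values are raw counts per gene symbol, whole numbers with no normalization. The 27 symbols turned into dates held 0.195% of counts.

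The models were fitted by edgeR 4.0.16 under R 4.3.3: filterByExpr by group, TMM scaling, and glmQLFit and glmQLFTest on the 15 libraries of a line together, with Benjamini-Hochberg adjustment over the 17744 (MM134), 17834 (MM330) and 18286 (HCC1428) genes tested; differences between lines were tested as interactions, with all 45 libraries in 1 fit. Fold changes are log2 with the SE of the fit. In all, 42 comparisons were made. Positions and exon lengths came from GENCODE 29, and promoters from RefSeq. Reads carried no molecular identifiers, so limits from a count of 0 cover counting error only. Replicate libraries of a group differed by more than counting noise (chi-square per degree of freedom 1.97 to 18.1 over 45 pairs), so none was counted as a duplicate.

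The genes and lists were chosen with earlier results of these data known. The genes named with full statistics are, in each of the 12 comparisons with siNT or siNT_E2, the 3 called with the largest change at 1 CPM or more in either group and the largest of each role; in each line difference of the estradiol effect, the largest of each role; in those of a knockdown effect, the largest. Other values were chosen after they were seen. Alternatives were another scaling (RLE), no filter on low counts, a replicate block, DESeq2 1.42.0, limma-voom (limma 3.58.1), the compared libraries alone, the libraries of lower pseudogene share alone and each library left out; a term for the pseudogene class was added after seeing the data. The fits were tested on simulated data.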

Additional observations from a re-analysis of the deposited data

Results flagged for a closer look

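The effects below differed between lines by the test of the difference itself (interaction contrast, adjusted p below 0.05), as log2 fold change in the first-named line minus the second. Their statistics stand in the report.

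For estradiol, MM330 minus HCC1428 was -2.36 for FADS2, -1.50 for SREBF1, -1.37 for STARD4 and -1.25 for ACAT2. FADS2 changed in opposite directions in the 2 lines (-0.95 in MM330 and 1.41 in HCC1428). MM134 minus MM330 was 2.10 for SCD, 1.58 for SREBF1, 1.15 for DHCR7 and -0.59 for NPC1. SCD was 0.45 in MM134 and -1.62 in MM330. MM134 minus HCC1428 was -0.96 for ABCA1, -0.88 for EBP, -0.76 for FADS1 and 0.38 for SREBF2, each a difference of size between effects of 1 direction.

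For siER_E2, SCD was 2.11 in MM330 minus HCC1428 and -2.01 in MM134 minus MM330, and ABCA1 was 0.86 in MM134 minus HCC1428. For siFOXA1_E2, FADS2 was 1.48 in MM330 minus HCC1428 and 1.08 in MM134 minus HCC1428, and STARD4 was -1.22 in MM134 minus MM330. For siMDC1_E2, INSIG2 was -0.83 in MM330 minus HCC1428 and 0.76 in MM134 minus MM330, and ABCA1 was 1.14 in MM134 minus HCC1428. STARD4 rests on libraries with under 4 CPM.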

How the results depend on the processing

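Of the 42 counts of members called, 1 moved by more than 1.5 times: siER_E2 over siNT in HCC1428 fell to 10 without the libraries of higher pseudogene share, against 16 with them; this alternative left 1 library in each of the groups compared, whose spread was then assumed to be that of the other groups. Under RLE scaling, no filter on low counts, DESeq2, limma-voom, the compared libraries only, the pseudogene class term and leaving out each library, all 42 stayed within 1.5 times. With 1 library left out, counts of members called ran from 25 to 26 (estradiol), 29 to 31 (siER_E2), 21 to 23 (siFOXA1_E2) and 25 to 27 (siMDC1_E2) in MM134, from 18 to 21, 18 to 22, 24 to 27 and 14 to 17 in MM330, and from 29 to 31, 29 to 31, 28 to 30 and 14 to 18 in HCC1428. No call of the 12 comparisons or the line differences turned sign in any alternative. Of the 262 calls of line differences, 212 held throughout and 50 were lost in at least 1 alternative. Calls were also gained: over the alternatives, the named genes that were followed gained a call 27 times and lost one 67 times. The cause was not tested.

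Replicate numbers did not pair the libraries: the median correlation of deviations between same-numbered libraries was 0.0072 in MM134, -0.023 in MM330 and -0.00057 in HCC1428, and 6 of 15, 5 of 15 and 8 of 14 libraries had a higher mean correlation with their own number than with the others. With a replicate block, counts stayed within 1.5 times of the main ones, for example 13 with the block and 16 without it for siMDC1_E2 in HCC1428. At 21.0 to 36.7 M counts per library, depth limits STARD4 in every line and ABCA1 in MM330.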
